A study of Mus musculus with 12 samples.

Results

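Pck1, Gpd1, Aqp7, Gpam, Agpat2, Lpin1, Dgat1 and Dgat2 are 8 genes of triglyceride synthesis and glycerol handling. They were taken by name for their place in the pathway, with earlier results of these data known. Each probe's RefSeq accession in the array files was matched to a gene symbol, which gave 9 probes for the 8 genes, 2 of them for Lpin1, out of 55681 probes that are not controls. All 9 were among the 32120 probes tested, which cover 14709 named genes.

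The study asked how loss of LR11, a sorting receptor encoded by Lr11 (current symbol Sorl1), alters adipose tissue. RNA was taken from subcutaneous white fat (scWAT) and brown fat (BAT) of male C57Bl6/J mice, either Lr11-/- or wild-type (WT) littermates, at 12 weeks of age. Each of the 2 depots and each of the 2 genotypes thus combined into 1 of 4 groups, with 3 one-colour Agilent arrays each. All mice ate a high-fat diet (HFD) with 60% of its calories from fat, which the labels put at 4 weeks in one place and from weaning onwards in another, so its length is not settled. The labels name no tissue-specific driver for the deletion, which the BAT and scWAT groups of the knockout share. The methods give n=3 for each tissue and genotype, but neither they nor the labels say whether each array is a separate mouse, and p-values measure only the spread between these arrays.

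Fat cells store fatty acids as triglyceride, built on a backbone of glycerol 3-phosphate. In white adipocytes most of that backbone comes from glucose through dihydroxyacetone phosphate or from lactate and amino acids by glyceroneogenesis, because these cells hold little glycerol kinase, whereas brown adipocytes also phosphorylate free glycerol. Acyl chains are then added in turn, a phosphate is removed to give diacylglycerol, and a last acyl chain completes the triglyceride, while glycerol freed by lipolysis leaves through a membrane channel.

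Promoters from RefSeq (GRCm38.p6), running from 250 bases before to 50 bases after the start site, were at hand for 5 of the 8 genes, Pck1, Agpat2, Aqp7, Lpin1 and Gpam, with 7 promoters in all. Dgat1, Dgat2 and Gpd1 were not in the table. The 7 were searched on both strands for 6 motifs. These were a cAMP response element (TNACGTCA), a sterol response element (TCACNCCAC), an E-box (CACGTG), the nuclear receptor element DR1, which is a direct repeat with 1 base between, and the basal promoter elements known as the TATA box (searched as TATAAA) and the CCAAT box (searched as its name). None of these motifs overlaps another in the 7. There were 2 matches, in promoters of Pck1 and Gpam, and these promoters are shown with the match in capitals. The Pck1 promoter at chr2:173152823-173153122 on the plus strand holds a cAMP response element that begins at position -93 from the start site, and the upstream one of the 2 Gpam promoters at chr19:55127189-55127488 on the minus strand holds an inverted CCAAT box that begins at position -74. Of all 32851 promoters of this length 2.93% hold that response element and 37.4% a CCAAT box on either strand. The other motifs were in 13.6% (TATA box), 1.24% (sterol response element), 7.15% (E-box) and 0.0396% (direct repeat), and a match or its absence in this window is a description only.
Pck1: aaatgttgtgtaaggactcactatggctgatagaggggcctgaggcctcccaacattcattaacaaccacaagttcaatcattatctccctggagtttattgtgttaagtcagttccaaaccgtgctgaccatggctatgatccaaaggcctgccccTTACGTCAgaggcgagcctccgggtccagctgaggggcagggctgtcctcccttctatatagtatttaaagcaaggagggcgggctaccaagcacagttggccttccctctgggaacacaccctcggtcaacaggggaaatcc
Gpam: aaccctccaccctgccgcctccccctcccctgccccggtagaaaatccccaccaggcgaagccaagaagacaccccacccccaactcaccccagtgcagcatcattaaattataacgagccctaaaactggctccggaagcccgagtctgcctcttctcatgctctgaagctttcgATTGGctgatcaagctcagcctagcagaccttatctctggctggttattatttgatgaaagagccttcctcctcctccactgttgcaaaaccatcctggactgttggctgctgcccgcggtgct

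Levels are log2 intensities relative to the 75th percentile of the array, so that 0 is the brightness of that percentile, and they are compared for the same probe only. Sorl1, the check of the knockout, was lower in Lr11-/-, where it fell by 4.34 log2 units in scWAT (adjusted p = 0.0063 in limma) and fell by 3.63 in BAT (adjusted p = 0.032). Hoxc9, a positional gene of subcutaneous fat, was at 1.08 to 3.02 on the 6 scWAT arrays and not well above background on any BAT array. Several scWAT arrays stood apart from others of their group. The mean level of 6 adipocyte markers, all well above background on all 12 arrays, was 6.92, 3.49 and 5.64 on WT scWAT replicates 1 to 3, 6.54, 7.17 and 7.35 on Lr11-/- scWAT replicates 1 to 3, and 6.94 to 7.19 in BAT. The mean of 3 macrophage markers was highest on WT scWAT replicate 2, at 4.64, against 0.10 to 3.09 elsewhere. The mean of 6 skeletal muscle markers was 5.25 to 8.14 on 5 arrays (WT scWAT replicate 3, Lr11-/- scWAT replicate 1, WT BAT replicates 1 and 3 and Lr11-/- BAT replicate 1) and -4.47 to -2.93 on the other 7. The epithelial mean of 3 markers, 2.37 on Lr11-/- scWAT replicate 1, was at -5.42 to -1.26 elsewhere, and over the 12 arrays the endothelial mean was 2.11 to 3.24 and the hepatocyte mean -6.68 to -4.18. The mean of 4 B lymphocyte markers was lower on every Lr11-/- array than on every WT array of the same depot, at -4.15 to -3.87 against -2.83 to -2.16 in scWAT and at -4.51 to -3.48 against -3.21 to -2.96 in BAT. Of its 3 tested markers 0 passed the test in either depot in limma, with 3 in scWAT and 2 in BAT at an unadjusted p under 0.05. The mean of 5 brown adipocyte markers was -1.60, -3.02 and 3.07 on the WT scWAT arrays, 3.05, 6.0 and 6.11 on the Lr11-/- scWAT arrays and 6.21 to 7.24 in BAT, and that of 4 white adipocyte markers was -0.18 to 3.13 in scWAT and -1.96 to -0.47 in BAT. Ucp1, the uncoupling protein of brown fat, was at 9.75 and 10.05 on Lr11-/- scWAT replicates 2 and 3, within the 9.45 to 10.07 of BAT, but at 4.39 on Lr11-/- scWAT replicate 1 and at -4.63, -4.52 and 2.92 on the WT scWAT arrays. Zic1, a positional gene of brown fat in the same list, was at -3.79, -3.79 and -3.00 on the Lr11-/- scWAT arrays and at -0.71 to 1.49 in BAT on its brighter probe, and at -6.86, 0.76 and 0.46 on the WT scWAT arrays. The other Zic1 probe did not show this pattern. Its group means were -1.82 in WT scWAT, -2.07 in Lr11-/- scWAT, -1.81 in WT BAT and -1.75 in Lr11-/- BAT. The part these differences between arrays had in the results was not tested.

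In scWAT on HFD the mean of each of the 8 genes was higher in the knockout, by 1.76 (Aqp7) to 3.77 (Pck1) on the log2 scale with a median of 2.09, against a median of 0.042 over all tested probes. Pck1 was the only one of the 8 to pass an adjusted p under 0.05 in limma, where 3.40% of all tested probes passed as higher in Lr11-/-. At an unadjusted p under 0.05, 6 of the 8 passed, beside 16.8% of all tested probes in that direction. The Lr11-/- arrays lay wholly above the WT arrays for Pck1, Gpam and Dgat1, 3 of the 8, beside 11.7% of all probes compared. In bulk tissue fewer adipocytes and less RNA per adipocyte cannot be told apart, which holds for each of these genes.

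**Figure D1:**
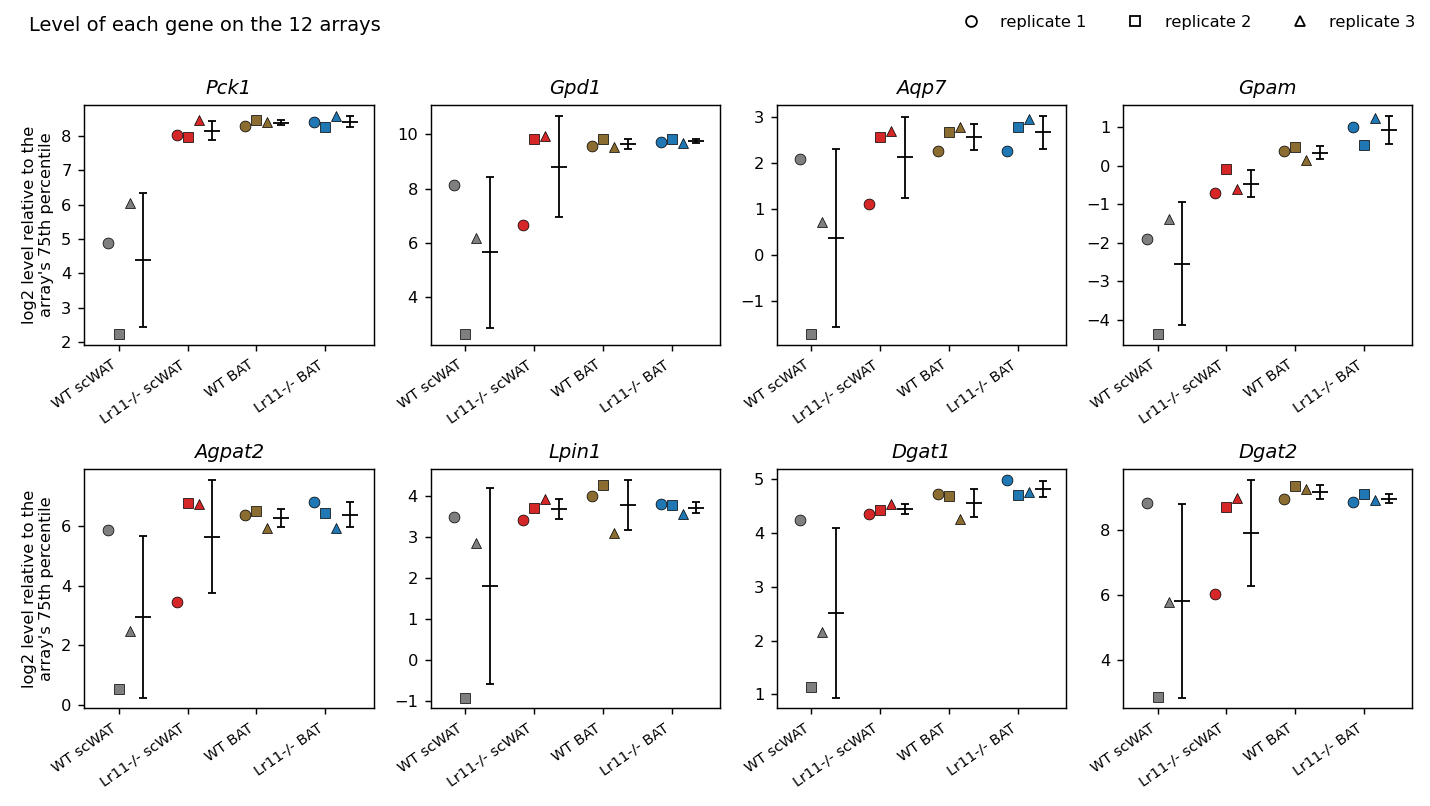
Level of each of the 8 genes (lead probe, log2 relative to the array's 75th percentile, vertical axis) on the 3 arrays of each group, with circles, squares and triangles for replicates 1, 2 and 3 and the bar for the mean ± SD. WT scWAT replicate 2 is the lowest of the 12 arrays for 8 of 8 genes, and the WT scWAT group has the largest SD of the 4 groups for 8 of 8.

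Among the genes that supply the glycerol backbone, Pck1, the cytosolic phosphoenolpyruvate carboxykinase that controls glyceroneogenesis, was at 4.87, 2.23 and 6.04 on WT scWAT replicates 1 to 3 and at 8.03, 7.97 and 8.46 on the Lr11-/- arrays (probe A_66_P121110). Every Lr11-/- array was above every WT array, and the Lr11-/- values lay close together while the WT values did not. The group means were 4.38 ± 1.95 (SD, n=3) and 8.15 ± 0.27 (SD, n=3), so that Pck1 rose by 3.77 log2 units (SE 0.72, 95% confidence interval 2.19 to 5.36, 13.7-fold, adjusted p = 0.033 in limma). The fit shares 1 spread per probe between the 4 groups. The SD of Pck1 was 0.075 in WT BAT and 0.16 in Lr11-/- BAT, so the BAT arrays narrowed this interval. Gpd1, the cytosolic dehydrogenase that reduces dihydroxyacetone phosphate to glycerol 3-phosphate, was at 8.12, 2.66 and 6.18 in WT and at 6.67, 9.83 and 9.92 in Lr11-/-. Lr11-/- replicate 1 lay below WT replicate 1, so the groups overlapped. The Gpd1 difference was 3.16 (SE 1.19, adjusted p = 0.12).

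Aqp7, the aquaglyceroporin through which adipocytes release glycerol, was at 2.09, -1.73 and 0.72 in WT scWAT and at 1.1, 2.57 and 2.70 in Lr11-/- scWAT. Here too Lr11-/- replicate 1 was below WT replicate 1, and the difference of 1.76 (SE 0.79) had an adjusted p of 0.18.

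Gpam, the mitochondrial acyltransferase that adds the first acyl chain to glycerol 3-phosphate, was at -1.90, -4.37 and -1.38 in WT scWAT and at -0.72, -0.07 and -0.61 in Lr11-/- scWAT. The spots of WT replicate 2 were too dim to stand well above background, those of the other 5 arrays were not, and the groups did not overlap. The difference was 2.08 (SE 0.62) with an adjusted p of 0.070. Agpat2, which adds the second acyl chain and whose loss causes lipodystrophy, was at 5.86, 0.52 and 2.47 in WT and at 3.44, 6.75 and 6.72 in Lr11-/-. Its groups overlapped through Lr11-/- replicate 1 and WT replicate 1, with a difference of 2.69 (SE 1.20, adjusted p = 0.17).

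Lpin1, the phosphatidate phosphatase lipin 1 that makes diacylglycerol, was at 3.48, -0.91 and 2.84 in WT scWAT and at 3.41, 3.71 and 3.91 in Lr11-/- scWAT on its brighter probe (A_55_P2083481). WT replicates 1 and 3 were near the Lr11-/- arrays and WT replicate 2 far below them, and the difference of 1.87 (SE 0.89) had an adjusted p of 0.20. The other Lpin1 probe (A_55_P2083474), likewise too dim on WT replicate 2, had a difference of 1.34 (SE 0.82, adjusted p = 0.31), in the same direction.

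Both enzymes of the last step, which join the third acyl chain to diacylglycerol, had a higher mean in Lr11-/- scWAT without passing the test. Dgat1 was at 4.23, 1.15 and 2.16 in WT and at 4.36, 4.42 and 4.55 in Lr11-/-. No arrays overlapped, though WT replicate 1 lay just below the Lr11-/- group, and the difference was 1.93 (SE 0.59, adjusted p = 0.075). Dgat2, the isoform that contributes most to stored triglyceride in mice, was at 8.83, 2.86 and 5.78 in WT and at 6.04, 8.72 and 8.99 in Lr11-/-. WT replicate 1 was as high as the upper Lr11-/- arrays, and the difference of 2.09 (SE 1.22) had an adjusted p of 0.29.

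**Figure D2:**
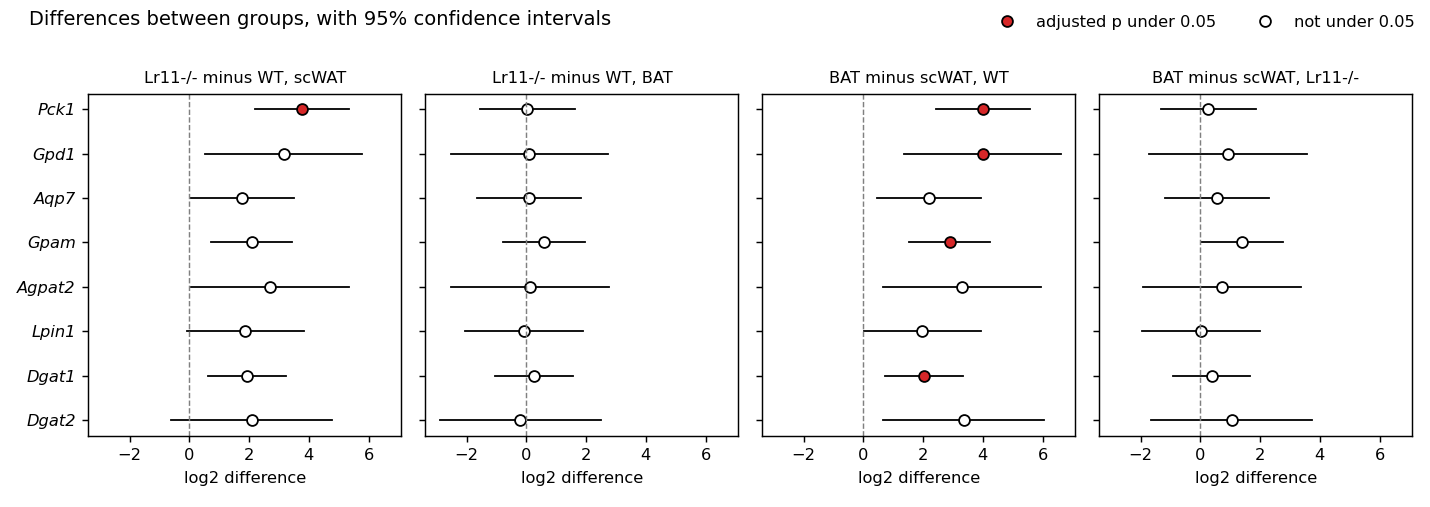
Difference between groups for each gene on the log2 scale (horizontal axis) with its 95% confidence interval from limma, in 4 comparisons. Filled points mark an adjusted p under 0.05, which holds for Pck1 alone in the genotype comparison in scWAT, for Pck1, Gpd1, Gpam and Dgat1 between the depots of WT mice, and for none in the other 2.

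The Pck1 call was a narrow one. It was lost with a fit to the 6 scWAT arrays alone (adjusted p = 0.30, with 0 of all probes passing and 3.77 still the difference), and in 8 of the 12 fits that each left out 1 array, namely Lr11-/- scWAT replicate 2 or 3 or any 1 of the 6 BAT arrays, with the adjusted p reaching 0.15. Over these 12 fits the Pck1 difference ran from 2.70 without WT scWAT replicate 2 to 4.60 without WT scWAT replicate 3. The number of all probes past the threshold also moved with the arrays in the fit. It was 1692 with every array, 31 and 17 without Lr11-/- scWAT replicate 2 and 3, and 137 to 170 without 1 BAT array. Left out singly, WT scWAT replicate 1 took the count of the 8 genes to 7 (all but Lpin1) with 4570 probes in all. Lr11-/- scWAT replicate 1 took it to 3 (Agpat2, Gpd1 and Pck1) with 6402, and WT scWAT replicate 3 to 2 (Gpam and Pck1) with 4785. Without WT scWAT replicate 2 the count stayed at 1, with 251 probes in all, while the differences of the 8 genes shrank to between 0.51 and 2.70.

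The direction also depended on the slide for several genes. On slide 1, with 1 array of each genotype, 3 of the 8 genes were higher in Lr11-/- scWAT, Pck1 by 3.16, Gpam by 1.18 and Dgat1 by 0.13. The other 5 were lower there, at -0.070 for Lpin1, -0.99 for Aqp7, -1.45 for Gpd1, -2.42 for Agpat2 and -2.79 for Dgat2. On slide 2, with 2 arrays of each genotype, 8 of 8 were higher in Lr11-/-, by 2.53 (Gpam) to 5.46 (Gpd1), with Pck1 at 4.08. The second array series alone, which is slide 2, gave 6 genes past the threshold (Dgat1, Dgat2, Agpat2, Gpd1, Pck1 and Aqp7). Of all probes 7365 passed there, against 1692 with every array. The slide as a block left the differences as they were and Pck1 as the 1 call, with 911 of all probes passing.

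**Figure D3:**
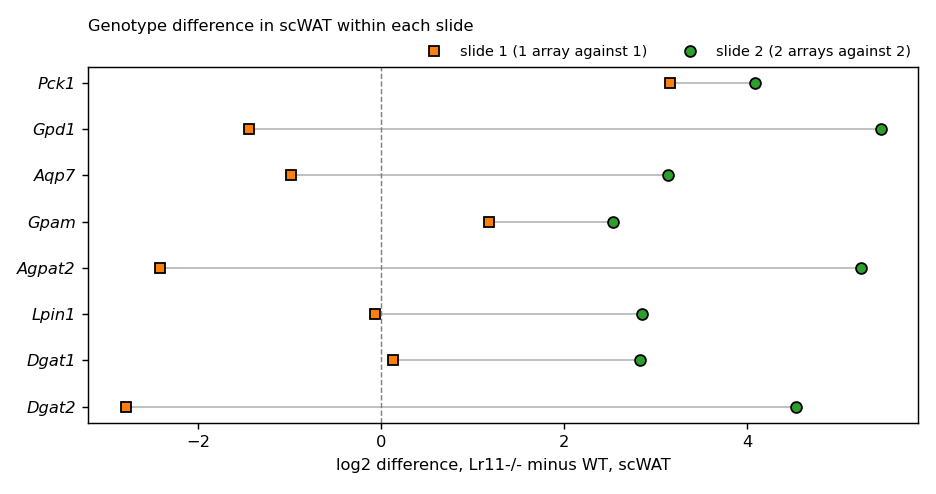
Lr11-/- minus WT difference in scWAT (log2, horizontal axis) within slide 1 (squares, 1 array against 1) and slide 2 (circles, 2 against 2). The circles lie at 2.53 to 5.46, and 5 of the 8 squares lie below 0.

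The 8 genes were also read against the adipocyte markers of the same array. Relative to the adipocyte mean, Pck1 was at -2.05, -1.25 and 0.40 on the WT scWAT arrays and at 1.48, 0.80 and 1.11 on the Lr11-/- scWAT arrays. It was the 1 gene of the 8 whose scWAT groups did not overlap on this scale. The share of all probes without overlap was not counted on it, so this 1 of 8 has nothing to be read against. With that mean in place of the 75th percentile, a scaling chosen after seeing the data, the median difference of all probes in scWAT moved to -1.63. Pck1 was then at 2.10 (adjusted p = 0.075) and Gpd1 at 1.48, Agpat2 at 1.01, and the other 5 between 0.085 (Aqp7) and 0.42 (Dgat2), and 0 of the 8 passed. Without the 5 arrays with skeletal muscle signal, also chosen after seeing the data, the Pck1 difference in scWAT was 4.66. That fit keeps only 1 WT BAT array. Of all probes called in scWAT 1091 were higher and 601 lower, against 303 and 535 with no scaling and 29 and 1237 with the adipocyte mean.

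**Figure D4:**
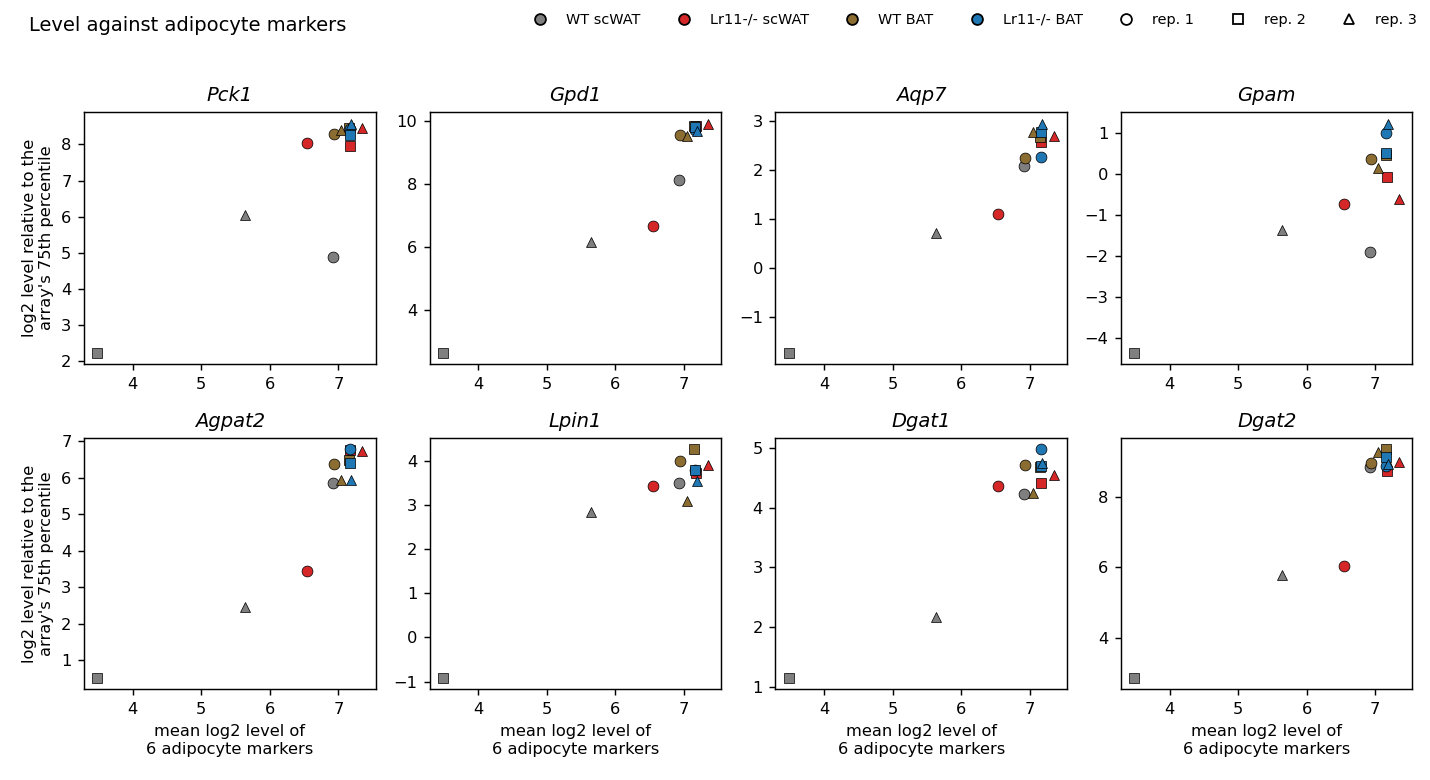
Level of each gene (vertical axis) against the mean level of 6 adipocyte markers on the same array (horizontal axis), both log2 relative to the array's 75th percentile, with 1 point per array. WT scWAT replicate 2 lies at the lower left of all 8 panels with an adipocyte mean of 3.49, and WT scWAT replicate 1 has a low Pck1 level of 4.87 at an adipocyte mean of 6.92.

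In BAT none of the 8 genes passed the test between genotypes, and 7 of the 8 had overlapping groups. Pck1 was at 8.30, 8.45 and 8.39 in WT BAT and at 8.42, 8.25 and 8.57 in Lr11-/- BAT, and the groups overlapped. Gpd1 was likewise at 9.55, 9.84 and 9.53 in WT BAT and at 9.72, 9.83 and 9.68 in Lr11-/- BAT. Gpam was at 0.38, 0.48 and 0.15 in WT BAT and at 1.0, 0.52 and 1.24 in Lr11-/- BAT, and was the 1 gene of the 8 whose Lr11-/- arrays all lay above the WT arrays, beside 7.40% of all probes compared. Its difference was 0.59 (95% confidence interval -0.78 to 1.95, adjusted p = 1.0). Over the 8 genes the differences ran from -0.21 (Dgat2) to 0.59 with a median of 0.099, against 0.039 over all probes.

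In limma 0 of the 8 passed the threshold in BAT, beside 0.0187% of all tested probes, and 0 passed at an unadjusted p under 0.05, beside 2.12%. The intervals do not show equal levels, since that of Dgat2 ran from -2.91 to 2.48. The fit shares 1 spread per probe between the groups, and the scWAT arrays widen it. With the 6 BAT arrays alone 0 of the 8 passed as well, beside 40 of all probes, against 6 of all probes with every array. Gpam was higher in Lr11-/- on both slides, by 0.57 on slide 2 and 0.62 on slide 3, and the sign was the same on both slides for 6 of the 8 genes.

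The genotype difference in scWAT was larger than that in BAT for 8 of 8 genes, with the 2 differences lying 1.5 (Gpam) to 3.74 (Pck1) apart and 2.13 at the median. In the test of this interaction 0 of the 8 passed, as did 0% of all tested probes. For Pck1 the interaction was 3.74 (SE 1.01, 95% confidence interval 1.5 to 5.98, adjusted p = 0.38), and with an unadjusted p of 0.0038 it was the 1 gene of the 8 under 0.05, beside 6.65% of all tested probes in that direction. That the genotype changes these genes in scWAT and not in BAT was therefore not shown. Without WT scWAT replicate 3 Pck1 passed this test (adjusted p = 0.039 in limma), with 285 of all probes passing.

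In WT mice all 8 genes had a higher mean in BAT than in scWAT, and 4 of them passed the test, beside 15.7% of all tested probes. These were Pck1, higher in BAT by 4.00 (SE 0.72, 16-fold, adjusted p = 0.0056), Gpd1 by 3.99 (SE 1.19, 15.9-fold, adjusted p = 0.034), Gpam by 2.88 (SE 0.62, 7.38-fold, adjusted p = 0.0100) and Dgat1 by 2.04 (SE 0.59, 4.10-fold, adjusted p = 0.030). Among the 8 they take in the genes of backbone supply (Pck1 and Gpd1), of the first acylation (Gpam) and 1 of the last step (Dgat1). They do not stand for every enzyme of these steps, and the Gpam spots of WT scWAT replicate 2 were not well above background. The differences of the other 4 were 3.36 for Dgat2 (adjusted p = 0.067), 3.31 for Agpat2 (adjusted p = 0.066), 2.21 for Aqp7 (adjusted p = 0.062) and 1.97 for Lpin1 (adjusted p = 0.12). The BAT arrays lay wholly above the scWAT arrays for 7 of the 8, beside 24.3% of all probes compared, and 8 of 8 had an unadjusted p under 0.05, beside 23.7%. Lpin1 overlapped because WT BAT replicate 3, at 3.09, was below WT scWAT replicate 1, at 3.48.

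This comparison used the same WT scWAT arrays as the genotype comparison in scWAT. On slide 2, the only slide with both WT depots, 8 of 8 were higher in BAT, by 2.71 (Lpin1) to 5.27 (Gpd1). With the slide as a block Gpd1 no longer passed, and the differences of the 8 genes were 2.26 to 4.11. Pck1 and Gpam passed in all 12 fits that left out 1 array, Dgat1 in 7 and Gpd1 in 5. Against 7967 probes past the threshold with every array, all 8 genes passed without WT scWAT replicate 1, with 10602 probes in all, while only Pck1 and Gpam did without WT scWAT replicate 2 (5292) or any 1 of the WT BAT arrays (3104 to 5475). Without the 5 arrays with skeletal muscle signal, which leaves 1 WT BAT array, 0 passed although the differences were 1.99 to 4.90. Of all probes called 5036 were higher and 2931 lower in BAT, against 2483 and 4708 with no scaling and 132 and 5653 with the adipocyte mean, under which Pck1 and Gpd1 still passed.

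In Lr11-/- mice the 8 genes also had a higher mean in BAT than in scWAT, but by 0.025 (Lpin1) to 1.39 (Gpam) with a median of 0.64, and 0 of the 8 passed, beside 0.0405% of all tested probes. Gpam was the largest, at -0.72, -0.07 and -0.61 in Lr11-/- scWAT and at 1.0, 0.52 and 1.24 in Lr11-/- BAT, with no overlap. Its difference of 1.39 (SE 0.62, 95% confidence interval 0.027 to 2.75, adjusted p = 0.55) was the only one of the 8 with an unadjusted p under 0.05, beside 5.59% of all tested probes in that direction. Dgat1 was the other gene without overlap, at 4.36 to 4.55 in scWAT and 4.70 to 4.99 in BAT, which makes 2 of 8 beside 14% of all probes compared. On slide 2 alone 5 of the 8 were higher in BAT.

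The order of the group means was the same for 8 of 8 genes, lowest in WT scWAT, next in Lr11-/- scWAT and highest in BAT of both genotypes. The share of all probes in this order was not counted, so this 8 of 8 has nothing to be read against. Between the depots of Lr11-/- mice the step was as small as 0.025 (Lpin1). Of 28 alternatives it changed sign in 11 for Lpin1 and in 4 each for Agpat2 and Gpd1. On slide 2 alone only 5 of the 8 were higher in BAT there. Among the neighbours tested, WT and Lr11-/- scWAT differed past the threshold for Pck1 only, and scWAT and BAT of Lr11-/- mice for 0 of the 8. The spread within WT scWAT stood out in the same genes. For Dgat2 the SD over the 3 arrays was 2.99 in WT scWAT, 1.63 in Lr11-/- scWAT, 0.21 in WT BAT and 0.13 in Lr11-/- BAT.

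Of 23 further genes of glycerolipid synthesis and glycerol handling 21 were tested, and Aqp3 and Aqp9 were too dim. In scWAT Gpd2, the mitochondrial glycerol 3-phosphate dehydrogenase that oxidises what Gpd1 makes, was the only 1 of the 21 to pass, beside 5.27% of all tested probes in either direction. Gpd2 was at 0.09, -0.64 and 0.36 in WT scWAT and at 1.64, 5.18 and 5.39 in Lr11-/- scWAT. Every Lr11-/- array was above every WT array, and replicates 2 and 3 were near the 5.04 to 5.83 of BAT. The difference was 4.13 (SE 0.80, adjusted p = 0.034). Over the 21 genes 13 were higher and 8 lower in Lr11-/- scWAT, with a median of 0.49. At an unadjusted p under 0.05 in limma 11 of the 21 passed, beside 27.6% of all tested probes in either direction. The arrays did not overlap for 5 genes that were higher and 1 that was lower, beside 20.4% of all probes compared in either direction. The call for Gpd2 held in 3 of the 12 fits that left out 1 array, with a difference of 3.47 to 5.35 and the adjusted p reaching 0.15. It was also lost with only the 6 scWAT arrays (adjusted p = 0.30), with no filter (adjusted p = 0.063) and on the adipocyte scale, where the difference was 2.46 (adjusted p = 0.074).

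Between the depots of WT mice 5 of the 21 passed as higher in BAT and 1 as lower, beside 24.8% of all tested probes in either direction. At an unadjusted p under 0.05 in limma 10 of the 21 passed, beside 40.1%. Gpd2 was higher by 5.57 (SE 0.80, adjusted p = 0.0032) and Gk, the glycerol kinase that lets brown adipocytes reuse free glycerol, by 4.38 (SE 1.18, adjusted p = 0.024). The acyltransferases Agpat3, Gpat4 and Agpat1 were higher in BAT by 2.16 (adjusted p = 0.0077), 1.94 (adjusted p = 0.0049) and 0.81 (adjusted p = 0.035). Agpat4, of the same acyltransferase family, fell by 2.18 in BAT (SE 0.54, adjusted p = 0.017), and its level was highest, at 4.29, on WT scWAT replicate 2, where the 8 genes were lowest. With the adipocyte mean as the scale Agpat1 turned to -0.88. In BAT between genotypes, in the interaction and between the depots of Lr11-/- mice 0 of the 21 passed in limma, with 0, 3 and 1 of them at an unadjusted p under 0.05, beside 2.12%, 11% and 9% of all tested probes in either direction.

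**Figure D5:**
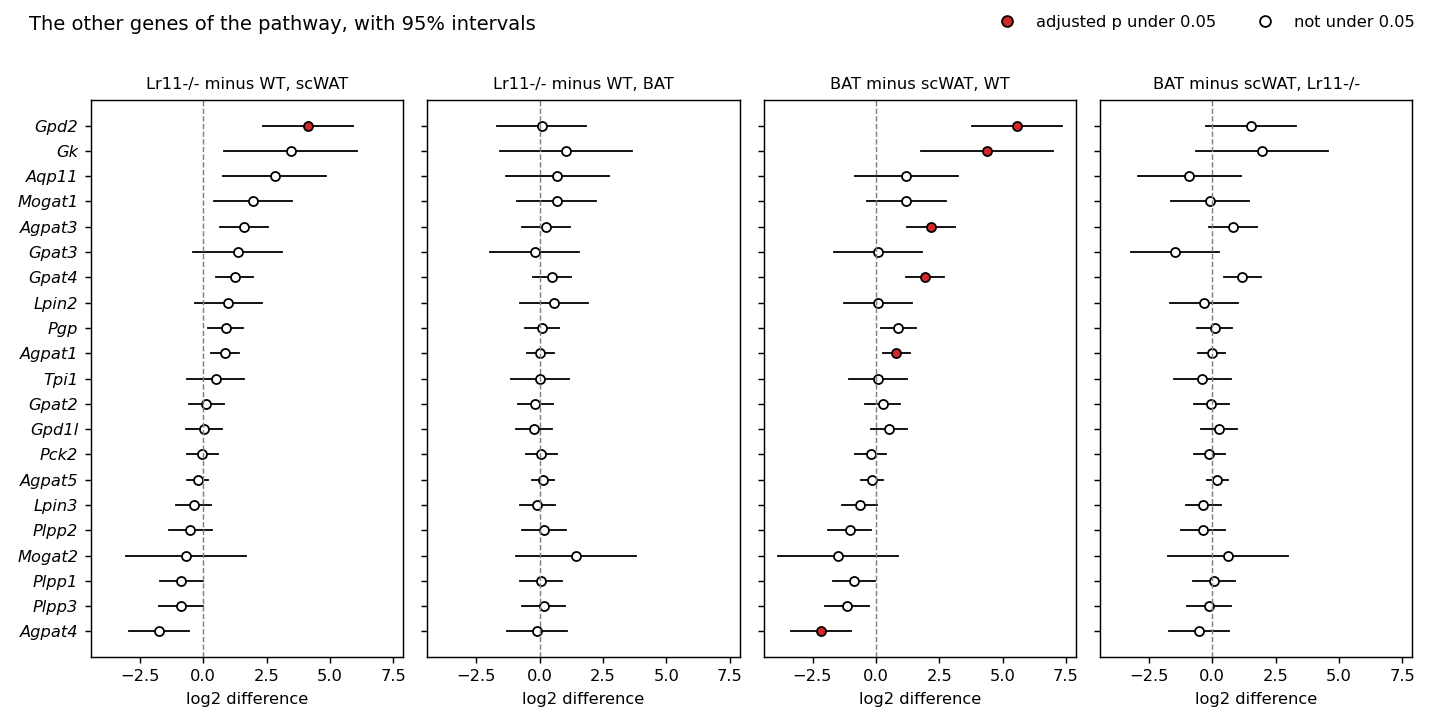
Difference between groups (log2, horizontal axis) with its 95% confidence interval for the 21 tested genes outside the 8, ordered by the genotype difference in scWAT. Filled points mark an adjusted p under 0.05, which holds for Gpd2 in scWAT and for 6 genes between the depots of WT mice.

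Across the 12 arrays the genes most like each of the 8, by Pearson's r of the log2 levels among tested probes with a name, were the following. The arrays share groups and tissue makeup, so r describes these arrays only. For Pck1 they were Apoo (r = 0.986), Cenpv (r = 0.985) and Adrb3 (r = 0.984), for Gpd1 Poln, Mpc2 and Clybl (each r = 0.995), and for Aqp7 Ormdl3 (r = 0.989), Aifm2 and Plin1 (both r = 0.988). Plin1 coats the lipid droplet and is one of the 6 adipocyte markers. Gpam was most like Kyat3, Ldhd and Hip1r (r = 0.979, 0.979 and 0.977), and Agpat2 most like Gys2 (r = 0.996), the liver-type glycogen synthase, Zdhhc2 (r = 0.991) and Poln (r = 0.989). Lpin1 was most like Amy2a5, St3gal3 and Amy1 (r = 0.991, 0.984 and 0.983), though the 2 amylase genes are near copies whose probes may bind both transcripts. Dgat1 was most like Tmem69, Snrpn and Adig (r = 0.980, 0.979 and 0.979), and Dgat2 most like Ntrk2, Zdhhc2 and Dmtn (r = 0.985, 0.984 and 0.984).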

How the data were processed

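RNA of the 12 samples, 3 in each of the 4 groups, was hybridised to Agilent mouse arrays with 1 colour. The deposited files give each spot's intensity from Feature Extraction (10.10.1.1 in the file headers), background-subtracted and not normalized between arrays. Their table of the whole series held the same values (largest difference 0). Groups came from the source label. The labels number no replicates, so the numbers used here only name arrays (1 is the array of the first series). Slide 1 held replicate 1 of both scWAT groups, slide 3 replicate 1 of both BAT groups and slide 2 the other arrays.

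Of 62976 features per array, 59305 spots were not controls. Outlier spots (128 to 181 an array) were dropped, and the remaining spots of each probe were averaged. From the log2 intensity the array's 75th percentile was subtracted, 374 to 632 as an intensity. A probe was tested if it stood well above background on every array of some group. Per array 32377 to 37002 spots stood well above background, with 0 saturated. RefSeq accessions were on 28685 probes, of which 27235 matched a symbol in the gene table of GRCm38.p6. A gene was read from its brightest tested probe. Coordinates are given for promoters only, since the array was designed on another assembly.

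Differences were tested in limma 3.58.1 (R 4.3.3; lmFit and eBayes) with 12 arrays and a mean per group, adjusted by Benjamini-Hochberg over all tested probes at 0.05. The steps were tested on simulated data with known changes. The number of arrays limits the precision. Figures were drawn with matplotlib 3.10.9.

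The 8 genes and all lists were chosen with earlier results of these data known. Genes named are the 8, those of the 23 pathway genes past the threshold (at most 6 per comparison, by size), the 3 named genes most correlated with each of the 8 and, as checks, Sorl1 and the marker lists. Alternatives were quantile, median and no scaling, normexp (offset 50, on median signals), other filters, outlier spots kept, slide or series as a block, the second series alone, array weights, trended robust moderation, only the 6 arrays compared, all probes of a gene, a threshold of 0.1 and each array left out. Chosen later were the fit without the 5 arrays with skeletal muscle signal and the adipocyte mean as the scale.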

Additional observations from a re-analysis of the deposited data

How the results depend on the processing

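Counts of the 8 genes past the threshold moved with several choices. In scWAT between genotypes the count of 1 became 0 with no filter, 0 with only the 6 arrays compared, 0 with the adipocyte mean as the scale, 3 at a threshold of 0.1, 5 with array weights and 6 with the second series alone, and ran from 0 to 7 with 1 array left out. Between the depots of WT mice the count of 4 became 3 with the slide as a block, quantile normalization or normexp (each without Gpd1), 3 with no scaling (without Dgat1), 3 with the filter on all 12 arrays (which does not test Gpam), 5 with array weights (adding Dgat2), 2 with no filter, 7 with the second series alone, 1 with only the 6 arrays, 7 at a threshold of 0.1, 2 with the adipocyte mean and 0 without the 5 arrays with muscle signal, and ran from 2 to 8 with 1 array left out. The interaction gave 1 with the second series alone (Agpat2, with 872 of all probes) and 1 with array weights (Pck1, with 1525). It gave 0 to 1 with 1 array left out. Between the depots of Lr11-/- mice array weights gave 1 (Gpam), with 5450 of all probes against 13 in the main fit. These weights ran from 0.20 on Lr11-/- scWAT replicate 1 to 8.24 on Lr11-/- scWAT replicate 2. In BAT between genotypes the count was 0 under every alternative run. The causes were not tested. No filter also took all probes called in scWAT from 1692 to 151, only the 6 arrays to 0 and the slide as a block to 911. Array weights took them to 4040, the second series alone to 7365, a threshold of 0.1 to 4891 and the adipocyte mean to 1266. Between the WT depots 7967 became 5794 with no filter, 4019 with only the 6 arrays and 3990 with the slide as a block. It became 8255 with the second series alone, 11542 at a threshold of 0.1, 5300 with array weights and 5785 with the adipocyte mean. Quantile normalization gave 8422, normexp 7822, no scaling 7191 and the filter on all 12 arrays 6558.

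Some differences changed sign. Of these only Agpat1 between WT depots had passed the threshold, and none passed it after the change. In BAT between genotypes Pck1 was at -0.026 with quantile normalization, -0.020 with no scaling, -0.0064 with the second series alone, -0.035 without the muscle arrays and -0.092 with the adipocyte mean. Agpat2 was there at -0.035 with the second series alone, -0.051 with array weights, -0.31 without the muscle arrays and -0.010 with the adipocyte mean. Gpd1 was at -0.012 with normexp, -0.084 without the muscle arrays and -0.026 with the adipocyte mean, and Aqp7 at -0.029 with the last. With 1 array left out these BAT differences ran from -0.046 to 0.12 for Pck1, -0.088 to 0.34 for Agpat2, -0.059 to 0.30 for Aqp7 and -0.42 to 0.17 for Lpin1.

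Between the depots of Lr11-/- mice Lpin1 was at -0.097 with quantile normalization, -0.10 with no scaling, -0.11 with normexp, -0.15 with the second series alone, -0.053 with array weights, -0.18 as the median of its probes, -0.15 without the muscle arrays and -0.12 with the adipocyte mean. Agpat2 was at -0.57, -0.41 and -0.57 and Gpd1 at -0.12, -0.040 and -0.12 with the second series alone, with array weights and without the muscle arrays. With 1 array left out Lpin1 ran from -0.11 to 0.14, Agpat2 from -0.36 to 1.29 and Gpd1 from -0.14 to 1.49. With the adipocyte mean the interaction of Gpam was -0.052 and Agpat1 between WT depots was -0.88. This scale shifts the median of all probes in the WT depots to -1.63.

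With 3 arrays a group, intervals of the 8 genes in scWAT spanned several log2 units. No paired analysis was possible because the labels carry no replicate numbers.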
